A study of Homo sapiens with 4 samples.

Results

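The interferon regulatory factor (IRF) genes IRF1, IRF2, IRF3, IRF4, IRF5, IRF7, IRF8 and IRF9 were followed in NK-92 cells with and without knockdown of ADAR1. They were taken by gene symbol from the deposited table of 20323 genes, where all 8 were found. IRF proteins share a DNA-binding domain that reads GAAA repeats in promoters and enhancers. IRF3, IRF5 and IRF7 are held inactive until sensors of foreign nucleic acid trigger their phosphorylation, after which they switch on interferon genes. IRF9 joins STAT2 and another STAT below the type I interferon receptor and directs them to the genes that interferon induces, among which IRF7 and IRF9 are themselves counted. IRF1 and IRF2 read the same elements as activator and competitor, and IRF4 and IRF8 act in lymphoid and myeloid cells together with partner factors. ADAR1 edits adenosine to inosine in double-stranded RNA, which keeps the RNA of the cell from being sensed as foreign.

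NK-92 is a human natural killer cell line kept in interleukin 2, and poly(A) RNA was sequenced from 4 libraries of it. NK scramble cells expressed a control hairpin delivered by lentivirus (2 libraries) while NK shADAR1 cells expressed an ADAR1 hairpin (2 libraries), with no other treatment named in the labels. The labels number the knockdown libraries 1 and 2, which was read as the replicate number, although the study also uses shADAR1-1 and shADAR1-2 as hairpin names and gives shADAR1-2 for its sequencing. Nothing in the labels says that libraries came from separate cultures, so a p-value here measures the spread between libraries, which may be technical.

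Estimated counts summed to 37881704 to 39960491 per library. Log2 CPM (counts scaled to a common depth by TMM) correlated across genes at 0.981 within either group and at 0.981 to 0.989 between libraries of different groups, so replicates were no closer to each other than to the other group. ADAR, the targeted gene, was at 655 and 682 CPM in the NK scramble libraries and at 575 and 482 CPM in the NK shADAR1 libraries, the latter being 86.0% and 72.1% of the NK scramble mean. Its log2 fold change was -0.34 (SE 0.20) and did not pass the test (edgeR's quasi-likelihood test, unadjusted p = 0.127, Benjamini-Hochberg adjusted p = 1.00). The NK-92 markers, which include NCAM1, NKG7 and GZMB, summed to 6437 to 7563 CPM in each library. Markers of other cells were low but for PAX5, a B cell factor, at 19.1 to 43.8 CPM, and TRAC, a T cell receptor gene, at 100.8 to 140 CPM. CD79A, CSF1R, IL3RA and CD3D were detected at 0.125 to 2.34 CPM, and MS4A1, FCN1, CLEC4C, LILRA4 and CD8B were at 0 in every library. The part of such cells in the results was not tested.

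All members but IRF5 were well expressed. In FPKM, which divides by transcript length and so allows levels of different genes to be compared, IRF1 was the highest member in each library, at 108 and 102 FPKM in NK scramble and at 108 and 72.1 FPKM in NK shADAR1. In NK scramble the order of mean levels was IRF1 (105 ± 4.28 FPKM, SD, n = 2), IRF3 (60.9 ± 7.20), IRF8 (58.7 ± 4.01), IRF2 (42.9 ± 0.288), IRF9 (36.0 ± 1.20), IRF7 (33.7 ± 13.9), IRF4 (22.5 ± 2.42) and IRF5 (0.024 ± 0.017). The ranges of the neighbours IRF3 and IRF8, IRF9 and IRF7, and IRF7 and IRF4 overlapped there, so their order is not established. In NK shADAR1 the order was IRF1 (89.9 ± 25.2 FPKM), IRF8 (67.1 ± 0.113), IRF3 (60.0 ± 2.88), IRF2 (36.7 ± 5.94), IRF4 (21.3 ± 2.30), IRF9 (19.9 ± 14.5), IRF7 (14.3 ± 14.6) and IRF5 (0.105 ± 0.0686), with overlapping ranges for IRF4 and IRF9 and for IRF9 and IRF7. The widest spreads relative to the mean among the tested members were thus those of IRF7 and IRF9 in NK shADAR1. As a share of the summed FPKM of all members, IRF7 made up 11.6% and 6.90% in NK scramble but 7.09% and 1.45% in NK shADAR1, whereas IRF8 made up 15% and 17.8% and then 19.3% and 24.7%. These shares also depend on the sum, which was 373.5 and 345.4 FPKM in NK scramble and 347.1 and 271.4 FPKM in NK shADAR1. IRF8 itself was at 67.0 and 67.1 FPKM in NK shADAR1.

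**Figure D1:**
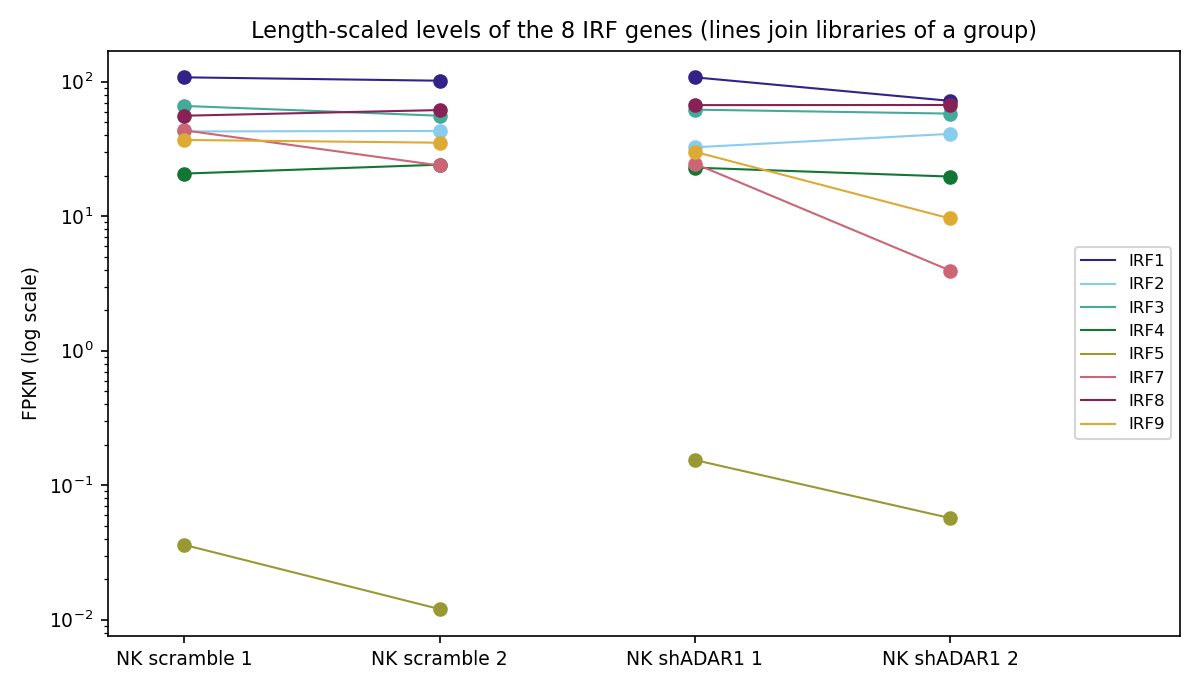
Level of each member in FPKM (log axis) in the 4 libraries, with lines joining the libraries of a group. IRF1 is highest in every library, IRF5 stays below 0.2 FPKM, and IRF7 and IRF9 are at 3.95 and 9.62 FPKM in NK shADAR1 replicate 2.

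The comparison of NK shADAR1 with NK scramble asked whether any member differed after ADAR1 knockdown. IRF7 and IRF9 had the largest differences in the family, both lower in NK shADAR1, while IRF3, IRF4 and IRF8 differed by less than 0.2 on the log2 scale, a range that holds 63.6% of all tested genes. Of 8 members 7 had enough counts to be tested, and 0 of the 7 were called (at least a 1.5-fold difference at an adjusted p under 0.05). By edgeR 0 of 11810 tested genes were called (0%), 293 (2.48%) had an unadjusted p under 0.05, and DESeq2 also called 0, with 289 at an unadjusted p under 0.05. The study reports differentially expressed genes from DESeq2 at the same thresholds, so its result was not reached here. The cause of this difference was not tested. Lower fold changes were found for 6 of the 7 members, beside 50% of all tested genes. The libraries of the groups did not overlap for IRF1, IRF2 and IRF9, which were lower in NK shADAR1 (12.6% of all tested genes), and for IRF8, which was higher (13.3% of all tested genes). RNA was taken from bulk cultures, in which fewer cells that express a gene and less RNA per cell cannot be told apart.

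**Figure D2:**
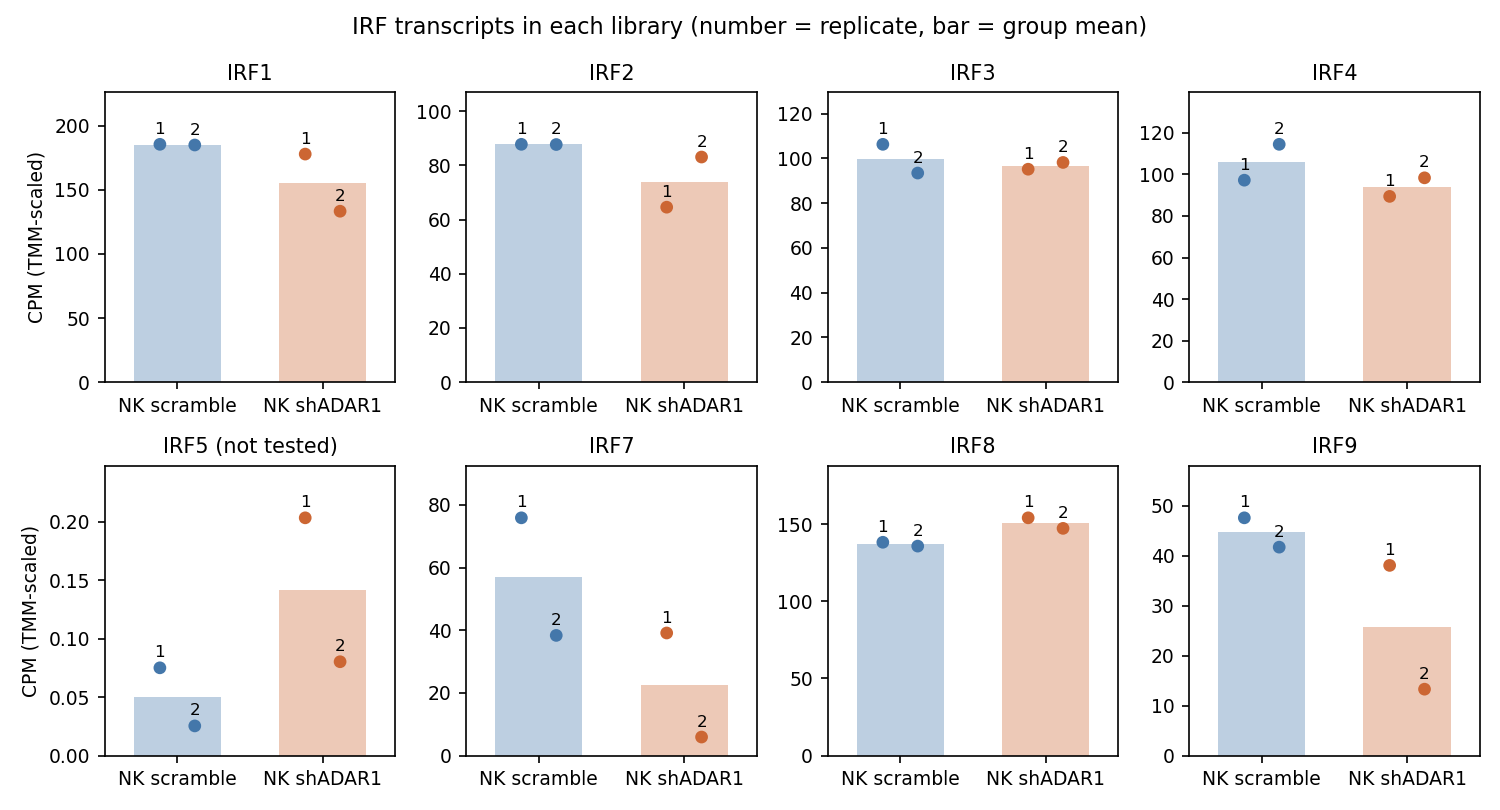
CPM of each member in each library, one panel per gene with its own axis from 0. Points are libraries numbered by replicate and bars are means of 2 libraries. NK shADAR1 replicate 2 is the lowest point for IRF7 (5.94 CPM), IRF9 (13.3 CPM) and IRF1 (133 CPM), and NK shADAR1 replicate 1 for IRF2 (64.6 CPM).

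IRF7 (chr11:612553-615999 of GRCh38, minus strand), the factor that amplifies interferon alpha production once it has been induced, varied most. It was at 75.9 and 38.4 CPM in replicates 1 and 2 of NK scramble and at 39.2 and 5.94 CPM in those of NK shADAR1, from 3031, 1508, 1540 and 222 estimated counts. The groups overlapped, since NK shADAR1 replicate 1 lay just above NK scramble replicate 2, and only NK shADAR1 replicate 2 stood below the other libraries. The log2 fold change was -1.34 (SE 0.63, 95% confidence interval -2.75 to 0.067; edgeR's quasi-likelihood test, unadjusted p = 0.0599, adjusted p = 1.00). A difference of -1 or below was found in 0.567% of all tested genes. The value rested on NK shADAR1 replicate 2: it was -0.55 without that library and -3.26 without NK shADAR1 replicate 1. Each of these fits had a lone knockdown library, whose spread cannot be measured, so only the effect size is given. The log2 fold change without NK scramble replicate 1 was -0.77.

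IRF9 (chr14:24161053-24166565 of GRCh38, plus strand), the DNA-binding part of the complex that answers type I interferon, was at 47.6 and 41.7 CPM in NK scramble and at 38.1 and 13.3 CPM in NK shADAR1. Both knockdown libraries lay below both controls, NK shADAR1 replicate 1 at 85.3% and replicate 2 at 29.8% of the NK scramble mean. The log2 fold change was -0.80 (SE 0.38, interval -1.65 to 0.051) and did not pass (edgeR, unadjusted p = 0.0629, adjusted p = 1.00). Again the size depended on NK shADAR1 replicate 2, with a log2 fold change of -0.23 without it and of -1.75 without NK shADAR1 replicate 1.

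**Figure D3:**
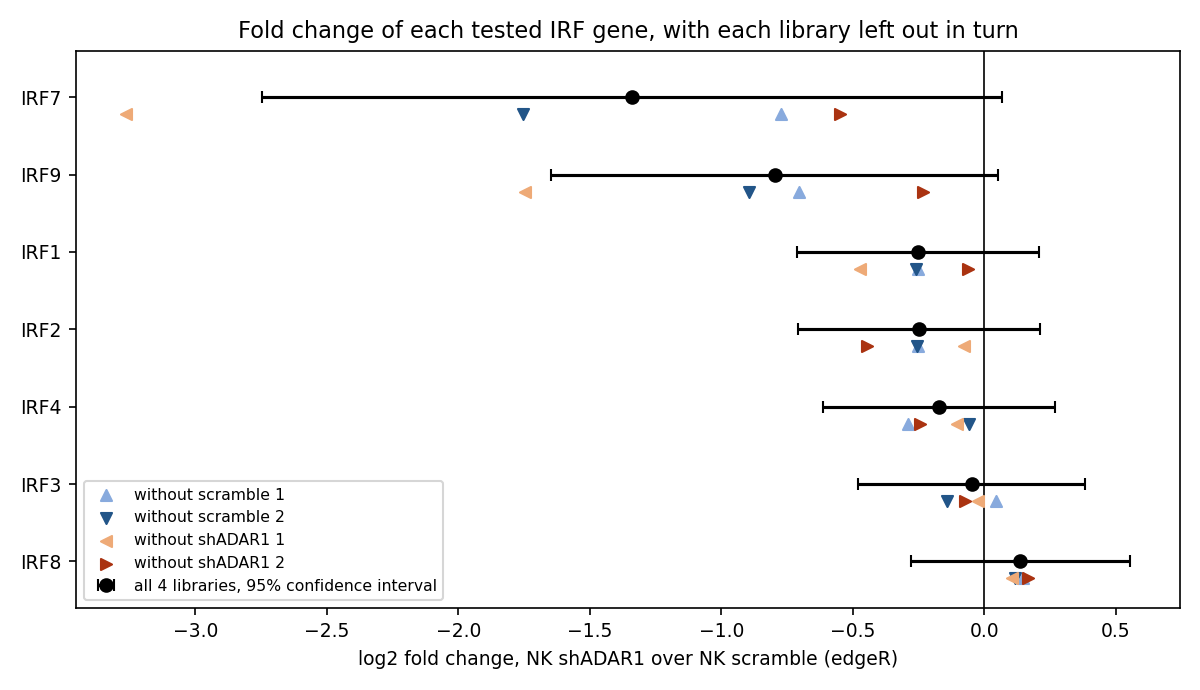
Log2 fold change of NK shADAR1 over NK scramble for the 7 tested members. Black points and bars give the edgeR estimate from 4 libraries with its 95% confidence interval, and triangles the estimate with a library left out. Every interval includes 0, and the triangles of IRF7 run from -3.26 to -0.55 and those of IRF9 from -1.75 to -0.23.

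The difference between the knockdown libraries was therefore measured on its own. NK shADAR1 replicate 2 held 0.152 of the IRF7 CPM of replicate 1 and 0.349 of its IRF9 CPM. Ratios of 0.5 or below were found for these 2 of the 7 tested members, beside 4.54% of all tested genes. IRF1 followed at 0.749, and 17.6% of all tested genes were at 0.75 or below. Between the NK scramble libraries the ratio of replicate 2 to replicate 1 was 0.506 for IRF7 and 0.877 for IRF9, so IRF7 also varied among controls while IRF9 varied little there. ADAR itself was lower in NK shADAR1 replicate 2 than in replicate 1, at a ratio of 0.838. The part of knockdown depth, of the hairpin or of library preparation in this difference was not tested.

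**Figure D4:**
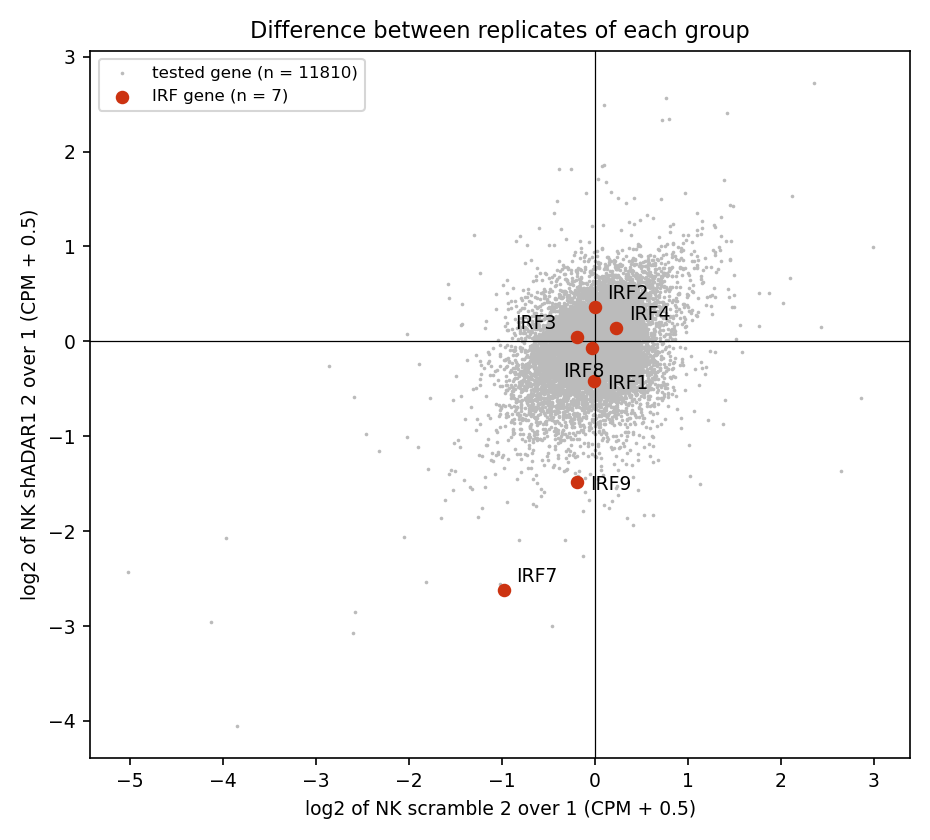
Difference between replicates in each group, as log2 of replicate 2 over replicate 1 (CPM + 0.5), for NK scramble on the horizontal axis and NK shADAR1 on the vertical axis. Grey points are the 11810 tested genes and red points the 7 tested members. IRF7 and IRF9 are the lowest of the members on the vertical axis, among the 4.54% of tested genes at a ratio of 0.5 or below, and IRF7 is also the member farthest to the left.

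Genes that type I interferon induces, which the complex of IRF9 switches on and which IRF7 raises further through interferon, were lower in the same library. The list held 39 genes, all tested, and was chosen with results of these libraries known, so its direction is no independent evidence. Its summed level was 4255 and 4273 CPM in NK scramble against 3248 and 2020 CPM in NK shADAR1, or 76.2% and 47.4% of the NK scramble mean. Fold changes were below 0 for 38 of the 39, with a median of -0.65 on the log2 scale (all tested genes, 0.000028). An unadjusted p under 0.05 was reached by 14, all lower (all tested genes, 0.779% lower), but 0 passed after adjustment. The median was -0.23 without NK shADAR1 replicate 2 and -1.27 without NK shADAR1 replicate 1.

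Library by library, NK shADAR1 replicate 2 was below both controls for all 39 targets (29.3% of all tested genes) and was the lowest of the 4 libraries for 36 (21.1%). NK shADAR1 replicate 1 was below both controls for 26 (33.6%). At 21 targets replicate 2 held at most 0.5 of the CPM of replicate 1 (4.54% of all tested genes). MX1, a GTPase that blocks incoming viruses and the most abundant gene of the list, was at 565 and 519 CPM in NK scramble and at 293 and 60.8 CPM in NK shADAR1 (log2 fold change -1.62, SE 0.53, edgeR unadjusted p = 0.0115). BST2, which tethers budding virions, was at 362 and 389 CPM and then at 250 and 302 CPM, and here replicate 1 was the lower of the knockdown libraries. USP18, which removes ISG15 from proteins and dampens the receptor, had the smallest p of the list (37.5 and 39.3 CPM against 21.6 and 15.5 CPM, log2 fold change -1.04, SE 0.22, edgeR unadjusted p = 0.000838).

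Further targets with at least a 1.5-fold difference at an unadjusted p under 0.05 had the same order of libraries, with NK shADAR1 replicate 1 between the controls and replicate 2. ISG15, a ubiquitin-like modifier, was at 95.9 and 114 CPM in NK scramble and at 68.1 and 32.9 CPM in NK shADAR1. OAS1 and OAS2, which make the oligoadenylate that activates RNase L, had log2 fold changes of -1.27 (SE 0.37) and -1.10 (SE 0.27). IFIT1, a binder of foreign RNA ends, IFI27, IFI6 and EPSTI1 had log2 fold changes of -1.30, -1.31, -1.13 and -1.15. Adjusted p-values of these genes were all 1.00 (edgeR).

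**Figure D5:**
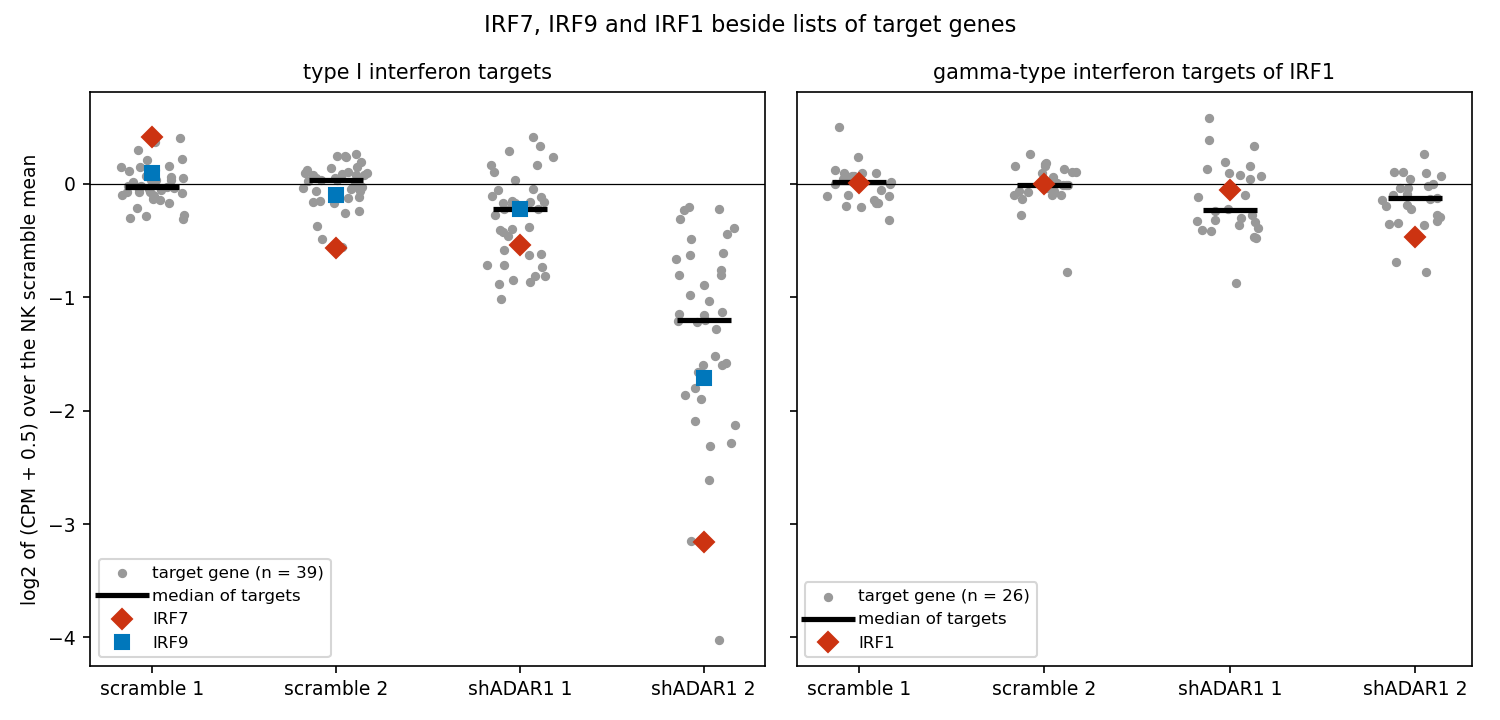
Level of each library against the NK scramble mean, as log2 of CPM + 0.5, for type I interferon targets with IRF7 and IRF9 (left) and for interferon gamma-type targets with IRF1 (right). Grey points are target genes and black dashes their medians. In NK shADAR1 replicate 2 the type I median is -1.20 with IRF9 at -1.71 and IRF7 at -3.16, whereas the gamma-type median is -0.13. In NK shADAR1 replicate 1 the medians are alike, at -0.228 for type I and -0.234 for gamma-type targets.

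Among the receptors and partners that act with IRF9, NK shADAR1 replicate 2 was the lowest library for 1 gene. Of 8 listed genes 7 were tested, 4 with a fold change above 0 and 3 below, and 0 had an unadjusted p under 0.05 (edgeR; 2.48% of all tested genes). The kinases JAK1 and TYK2, the most abundant of them, were at 330 and 371 CPM and at 202 and 159 CPM in NK scramble, and at 394 and 341 CPM and at 213 and 151 CPM in NK shADAR1, so both overlapped between groups. STAT2, the partner of IRF9, was at 36.7 and 55.8 CPM in NK scramble and at 42.7 and 38.4 CPM in NK shADAR1.

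IRF1 (chr5:132481609-132490798 of GRCh38, minus strand), an activator induced by interferon gamma and by interleukin signals, was at 185 and 185 CPM in NK scramble and at 178 and 133 CPM in NK shADAR1. Replicate 1 of the knockdown lay close under the controls, at 96.0% of their mean, and replicate 2 at 72.0%. The log2 fold change was -0.25 (SE 0.21, interval -0.71 to 0.21; edgeR, unadjusted p = 0.252), and it was -0.061 without NK shADAR1 replicate 2 and -0.47 without NK shADAR1 replicate 1. IRF2 (chr4:184387713-184474580 of GRCh38, minus strand), which competes with IRF1 for its sites and is needed for antigen presentation genes, had a like fold change from the other library. It was at 87.8 and 87.7 CPM in NK scramble and at 64.6 and 83.1 CPM in NK shADAR1, so that here replicate 1 was the low library (log2 fold change -0.25, SE 0.21, interval -0.71 to 0.21; edgeR, unadjusted p = 0.256). Its log2 fold change was -0.44 without NK shADAR1 replicate 2 and -0.077 without NK shADAR1 replicate 1.

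Genes that IRF1 turns on with interferon gamma signals, namely guanylate-binding proteins, immunoproteasome subunits and the class I antigen presentation machinery, summed to 8070 and 8957 CPM in NK scramble and to 7069 and 8289 CPM in NK shADAR1. Of 30 listed, 26 were tested, 8 with a fold change above 0 and 18 below, with a median of -0.16 on the log2 scale. Replicate 2 of the knockdown held 0.5 or less of replicate 1 CPM for 0 of the 26 (4.54% of all tested genes). It was the lowest library for 6 (21.1% of all tested genes). Replicate 1 of the knockdown was below both controls for 15 of the 26 (33.6% of all tested genes) and replicate 2 for 14 (29.3%), and the groups did not overlap, with lower values in NK shADAR1, for 10 (12.6%). The most abundant were B2M (3192 and 4001 CPM against 2881 and 3852 CPM), the light chain of class I molecules, and HLA-E (1113 and 1015 CPM against 796 and 1035 CPM), a ligand of the inhibitory receptor NKG2A. WARS1, a tryptophanyl-tRNA synthetase induced by interferon gamma, was at 429 and 301 CPM in NK scramble and at 198 and 212 CPM in NK shADAR1, low in both knockdown libraries (log2 fold change -0.83, SE 0.22; edgeR, unadjusted p = 0.00367, adjusted p = 1.00). TAP1, part of the peptide transporter and named after its values were seen, was the other of 2 genes of the list with an unadjusted p under 0.05, both lower (265 and 242 CPM against 182 and 157 CPM; all tested genes, 0.779% lower).

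IRF3 (chr19:49659569-49665875 of GRCh38, minus strand), which is present before infection and is activated by phosphorylation, differed least. It was at 106 and 93.4 CPM in NK scramble and at 95.1 and 98.2 CPM in NK shADAR1, with both knockdown libraries between the controls (log2 fold change -0.047, SE 0.19, interval -0.48 to 0.38; edgeR, unadjusted p = 0.814). Its sign turned to 0.046 without NK scramble replicate 1.

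Among 25 sensors, adaptors and kinases that lead to IRF3, IRF5 and IRF7, 22 were tested, 10 with a fold change above 0 and 12 below, with a median of -0.011 on the log2 scale. The adaptor MAVS and the kinase IRAK1, the most abundant, were at 122 and 138 CPM and at 278 and 223 CPM in NK scramble, and at 131 and 140 CPM and at 239 and 217 CPM in NK shADAR1. An unadjusted p under 0.05 was found for 2, both lower (all tested genes, 0.779% lower). CGAS, the sensor of cytosolic DNA, was at 30.9 and 24.1 CPM in NK scramble and at 16.1 and 19.7 CPM in NK shADAR1 (log2 fold change -0.62, SE 0.22; edgeR, unadjusted p = 0.0202, adjusted p = 1.00). DHX58, a RIG-I-like receptor named after its values were seen, was at 28.6 and 26.5 CPM and then at 21.5 and 15.8 CPM. RIGI and IFIH1, of the same receptor family and also named after their values were seen, were lowest in NK shADAR1 replicate 2. RIGI was at 28.1 and 30.7 CPM in NK scramble and at 27.1 and 17.9 CPM in NK shADAR1. IFIH1 was at 37.3 and 33.1 CPM and then at 30.5 and 16.65 CPM. The endosomal receptors TLR7 and TLR8 were at 0 in every library.

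Of 14 listed interferon genes, 7 were at 0 in every library and 2 were tested. IFNB1, the first interferon that IRF3 induces, had 3 and 18 estimated counts in NK scramble, against 10 and 0 in NK shADAR1, too few to order the groups. IFNG, the interferon that natural killer cells themselves make, was at 32.3 and 60.0 CPM in NK scramble and at 19.7 and 22.5 CPM in NK shADAR1. Its groups did not overlap, but the controls lay far apart (log2 fold change -1.13, SE 0.28; edgeR, unadjusted p = 0.00236, adjusted p = 1.00).

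IRF4 (chr6:391739-411447 of GRCh38, plus strand), a factor of activated lymphocytes, was at 97.2 and 114 CPM in NK scramble and at 89.4 and 98.3 CPM in NK shADAR1. The groups overlapped, and the log2 fold change was -0.17 (SE 0.20, interval -0.61 to 0.27; edgeR, unadjusted p = 0.404). IRF8 (chr16:85898803-85922609 of GRCh38, plus strand), best known from myeloid development and also needed in natural killer cell responses, was the only tested member with a fold change above 0. It was at 138 and 136 CPM in NK scramble and at 154 and 147 CPM in NK shADAR1, above both controls in both libraries, but by less than the test could separate (log2 fold change 0.14, SE 0.19, interval -0.28 to 0.55; edgeR, unadjusted p = 0.480). As the groups did not overlap, the sign was bound to hold with a library left out (0.11 to 0.17), which adds no support. In DESeq2 and in limma on FPKM, fitted to the same 4 libraries, IRF8 was also above 0 (0.13 and 0.19).

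IRF4 and IRF8 bind DNA mostly with partners. Of 15 partners 13 were tested, 2 with a fold change above 0 and 11 below, with a median of -0.24 on the log2 scale and 0 with an unadjusted p under 0.05 (edgeR; 2.48% of all tested genes). The median was -0.09 without NK shADAR1 replicate 2 and -0.31 without NK scramble replicate 2. IKZF3, a lymphoid zinc finger factor and the most abundant of them, was at 266 and 510 CPM in NK scramble and at 447 and 392 CPM in NK shADAR1, and TCF3 was at 232 and 132 CPM and then at 185 and 123 CPM, so both overlapped. SPI1, the myeloid partner of IRF8, was at 0.025 CPM or less in NK scramble and at 0.054 CPM or less in NK shADAR1. Among 11 co-regulators and factors of IRF protein turnover, all tested, 5 had a fold change above 0 and 6 below (median -0.068, and -0.25 to 0.066 with a library left out), and LYN and CREBBP, the most abundant, overlapped between groups.

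IRF5 (chr7:128937612-128950035 of GRCh38, plus strand), a factor of myeloid and B cells below Toll-like receptors, was barely detected. It had 3 and 1 estimated counts in NK scramble, against 8 and 3 in NK shADAR1, and was left out of the test by the filter on low counts. No direction can be read from so few counts. Markers of cells known for IRF5 were mostly low: the 5 myeloid markers summed to 1.60 and 1.37 CPM in NK scramble and to 2.39 and 2.46 CPM in NK shADAR1. Of the B cell markers, MS4A1 was at 0 in each library, whereas PAX5 was at 23.4 and 21.4 CPM in NK scramble and at 43.8 and 19.1 CPM in NK shADAR1. Their part in the IRF5 counts was not tested.

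Profiles over the 4 libraries were also compared gene by gene, by the root mean square difference of log2 CPM after each gene was centred on its own mean. For IRF9 the most alike of all tested genes were CMPK2 (0.0616), IFI44 (0.0746) and IFIT3 (0.0841), all from the type I target list, and 15 genes lay within 0.2. For IRF7 no gene lay within 0.2, and the nearest were PCDHB14 (0.266), ENSG00000288894 (0.315) and MX1 (0.356). The profiles of IRF1, IRF2, IRF3, IRF4 and IRF8 were shared by 2333 to 5979 genes within 0.2, so their nearest genes are not named. These values describe the same 4 libraries and carry no test.

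NK shADAR1 replicate 2 was lowest for IRF9 and IRF1, for 36 of 39 type I targets and for 21.1% of all tested genes. For IRF1 it held 0.749 of replicate 1, and 17.6% of all tested genes were at 0.75 or below. The promoters of IRF9 and IRF1 are shown for the letters that interferon-activated factors read, while IRF7 had no promoter sequence. RefSeq promoter windows of GRCh38.p14 (250 bases before to 50 bases after a transcript start) were given for 5 of the 8 members, IRF1, IRF4, IRF5, IRF8 and IRF9, in 9 windows. Both strands were searched for the core of the interferon-stimulated response element (GAAA, then 2 bases of any kind, then GAAA), for AANNGAAA, the shorter IRF core that lies within it, and for TTCNNNGAA, the core of the gamma-activated site read by STAT dimers. They were found in 3.57%, 22.8% and 7.66% of 35116 promoters. The first was found in 0 of the 9 windows. The matches of IRF9, IRF1 and IRF8 are given 5′ to 3′ on the strand of the gene, with the matching bases in capitals.
IRF9, IRF core, chr14:24161219-24161248, plus strand: ccctggaggagAACTGAAActtagggtggg
IRF9, gamma-activated site core, chr14:24161191-24161220, plus strand: gaccacgtgatTTCTGGGAAaaggccctcc
IRF1, gamma-activated site core, chr5:132490879-132490908, minus strand: aacagcctgatTTCCCCGAAatgacggcac
IRF8, IRF core, chr16:85902703-85902732, plus strand: gtatctgcctgAAAGGAAAgggcagatgaa
IRF8, IRF core on the other strand, chr16:85902798-85902827, plus strand: tcccacggagcTTTCAGTTtgcactcaggg

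In IRF9 the IRF core began 35 bases and the gamma-activated core 63 bases before the transcript start, without overlap, and in IRF1 the gamma-activated core began 124 bases before it. IRF8, whose RNA was not lower in NK shADAR1, held the IRF core at both places shown, and a promoter of IRF5 held it on the other strand 33 bases before the start. The 2 windows of IRF8 open at 85902580 and 85902765, inside the gene, whose annotated start is 85898803. Bases around that annotated start were not searched in IRF8. The 1 window of IRF4 held none of the 3 sets of letters. These are matches of letters and not measured binding.

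Some members share bases with other genes, and the library kit did not mark strand. IRF9 lies wholly within AL136295.5, a protein-coding annotation on the same strand, and its estimated counts were not whole numbers (1901.23 and 1640.19 in NK scramble, 1497.72 and 496.99 in NK shADAR1). AL136295.5 was at 8.91 and 8.25 CPM in NK scramble and at 13.0 and 3.99 CPM in NK shADAR1, so the knockdown libraries lay above and below the controls. RNF31, 391 bases upstream of IRF9, was at 83.4 and 76.5 CPM and then at 80.7 and 66.2 CPM (log2 fold change -0.12). PHRF1, 330 bases from IRF7, was at 97.1 and 67.5 CPM and then at 85.3 and 69.3 CPM (log2 fold change -0.090), so that NK shADAR1 replicate 2 lay between the controls. IRF1 lies within AC116366.3 on the opposite strand (31.4 and 26 CPM against 49.0 and 24.9 CPM), and IRF3 shares 734 bases with BCL2L12 on the opposite strand. How reads over shared bases were divided is not stated, so the values of IRF1, IRF3 and IRF9 are uncertain to that extent.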

How the data were processed

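Poly(A) RNA of 2 NK scramble and 2 NK shADAR1 libraries of NK-92 cells was sequenced by the authors, who trimmed reads with fastp 0.18.0 (submitters' processing notes). The aligner, counting program, build and annotation are not given in the sources used here. The authors deposited estimated counts per gene, not normalized and 12.4% of them not whole, and FPKM values, which scale counts by length and mapped fragments.

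Estimated counts were rounded, filtered with filterByExpr (minimum count 10), scaled by TMM and tested in R 4.3.3 with the quasi-likelihood test of edgeR 4.0.16, without covariates, with Benjamini-Hochberg adjustment over 11810 genes. A call needed at least a 1.5-fold difference at an adjusted p under 0.05. The SE is the log2 fold change divided by the square root of F. CPM uses TMM-scaled library sizes, and FPKM served levels and an alternative test. Gene positions are from GENCODE 29 (GRCh38), and 20301 identifiers matched a symbol.

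Members and gene lists were chosen with earlier results of these data known. Named genes are the members, ADAR, the 2 most abundant genes of each pathway list, up to 8 of its genes that differed at least 1.5-fold at an unadjusted p under 0.05, nearest profiles and genome neighbours. Others are said to be named after their values were seen, or given as list or marker examples. Alternatives were 2 other scalings (RLE, upper quartile), DESeq2 1.42.0, 2 other count filters, limma 3.58.1 on log2(FPKM + 0.1) and log2(FPKM + 1), the replicate number as a block, and each library left out. Scripts were tested on simulated counts. At this depth counting error is small for all members but IRF5, and 2 libraries per group limit precision. An exact permutation test of 2 against 2 libraries cannot reach 0.05 and was not used.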

Additional observations from a re-analysis of the deposited data

How the results depend on the processing

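Of the log2 fold changes of tested members under the alternatives, 80 kept their direction and their side of the threshold. IRF3, called in no setting, turned from -0.047 to 0.046 without NK scramble replicate 1 (range with a library left out, -0.14 to 0.046). With the replicate number as a block, IRF7 was called (-1.78, edgeR adjusted p = 0.019) and IRF9 was not (-0.97, adjusted p = 0.186); members called were 1, members with an unadjusted p under 0.05 were 2, and genes called over all were 13. The same-numbered libraries deviated together (correlation 0.308 across genes), but with 2 pairs and no label that ties them, the numbers are not shown to pair the samples. With a library left out, 1 to 47 genes were called over all, 0 to 2 members were called and 0 to 2 members had an unadjusted p under 0.05, against 0 in each case with all 4. Members with an unadjusted p under 0.05 were 1 by DESeq2 (IRF9) and 2 without the count filter (IRF7 and IRF9). Of the medians of the pathway lists, 56 differed from their reported value by less than the spread between replicates and 14 by more, among them the median of the IRF4 and IRF8 partners, -0.15 with a mean of at least 50 counts, and that of the interferon genes, 0.62 by DESeq2 and 0.59 without the count filter, where more genes were tested. The cause of these shifts was not tested. Depth does not limit the 7 tested members, and IRF5, with 1 to 8 counts, could not be ordered.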

Other observations

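The deposited FPKM and counts imply a transcript length for each gene and library (count divided by FPKM and by the summed counts). For IRF4 this length was 4734 and 4658 bases in NK scramble and 4042 and 4833 bases in NK shADAR1, a spread of 19.6%, wider than in 87.8% of the 7738 genes with at least 500 counts in every library. For IRF8 it was 2499 and 2168 bases, then 2388 and 2124 bases, a spread of 17.7%, while IRF1, IRF2 and IRF3 spread by 3.18% to 5.73%. The median spread was 4.98%. IRF7 and IRF9 had under 500 counts in NK shADAR1 replicate 2 and were not ranked, with lengths of 1762 and 1583 bases in NK scramble and 1652 and 1459 bases in NK shADAR1 for IRF7, and of 1304 and 1166 bases, then 1313 and 1340 bases, for IRF9. The log2 fold change of IRF7 was -1.34 on CPM by edgeR and -1.69 on FPKM + 0.1 by limma. NK shADAR1 replicate 1 thus had less IRF4 than NK scramble replicate 1 in CPM (89.4 against 97.2) but more in FPKM (23.0 against 20.7). The mix of transcripts behind these lengths was not tested.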
